A study of Homo sapiens with 5 samples.

Results

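The comparison set 1 array of H1 cells treated with IWP2 against 1 array of untreated control cells. Both were taken by their treatment labels, and they are 2 of the 5 arrays of the series. Of 20041 genes with a named probe on the BeadChip, 10267 were detected on at least 1 of these 2 arrays, 8414 of them on both. The IWP2 cells were H1 cells induced with CHIR99021 and given IWP2 from day 2 to day 5. The control cells went through the same CHIR99021 induction and stayed in basal differentiation medium. Cells of both groups grew on matrigel with fresh medium each day and were harvested on day 10, so the IWP2 array reads the cells several days after the inhibitor was withdrawn. H1 is an established human embryonic stem cell line, and all the material comes from this 1 line. The labels give no dose for IWP2 or CHIR99021. The other arrays hold cells given LY294002, insulin, or IWP2 with LY294002.

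CHIR99021 inhibits the kinase GSK3, which otherwise marks beta-catenin for destruction, and so switches on canonical WNT signaling without a ligand. IWP2 blocks Porcupine, the enzyme that attaches a lipid to WNT proteins before they leave the cell, and so stops cells from signaling to themselves and their neighbours with their own WNTs. In the developing embryo WNT signaling first helps to induce mesoderm and later restrains the heart lineage, and protocols that make cardiomyocytes from stem cells commonly add a WNT activator first and a WNT inhibitor some days later. The question the comparison addresses is what day 10 cultures express when their own WNT secretion was blocked after induction.

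With 1 array in each group there is no spread between replicates, and no difference below was tested. Values are normalized log2 intensities, and every difference is IWP2 minus control on the log2 scale, so that 1 stands for 2-fold. Higher and lower are used of genes with detected signal on each of the 2 arrays that differed 2-fold or more. A gene detected on 1 array only has a bound, given as at least N-fold. A level of one gene cannot be set against that of another, since each probe has its own brightness. The 2 arrays were of nearly equal brightness, with 14723 detected probes and a median intensity of 114 for IWP2, and 14304 detected probes and a median intensity of 115 for the control. Among the 8414 genes with signal on each array, IWP2 lay 2-fold or more above the control in 584 (6.94%) and below it in 648 (7.70%). Those shares are the background for each gene group that follows. The median difference was 0.00, the quartiles were -0.43 and 0.42, and the levels of the 2 arrays correlated at r = 0.902 across genes, which are not independent replicates. A further 975 genes (9.50% of 10267) were detected with IWP2 only and 878 (8.55%) in the control only. Without background correction, which shrinks differences, the counts were 242 and 311, and list medians shrank as well. Past 4-fold stood 74 higher and 125 lower genes, and past 8-fold 16 higher and 19 lower genes.

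**Figure D1:**
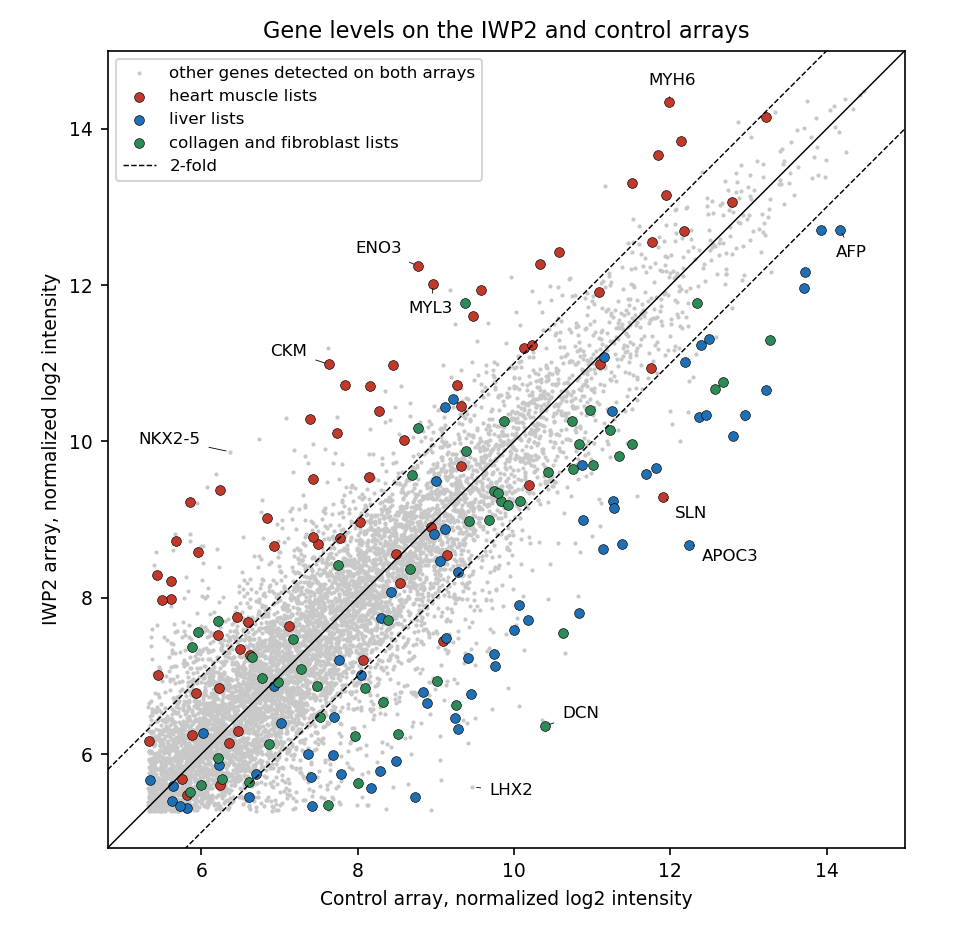
Each point is 1 gene detected on both arrays, with its normalized log2 intensity on the control array on the horizontal axis and on the IWP2 array on the vertical axis. Red points are genes of the filament, Z-disc, calcium and muscle energy lists, blue points genes of the 4 liver lists and green points genes of the 2 matrix lists, and the dashed lines mark 2-fold. Most red points lie above the diagonal (MYH6, 14.34 with IWP2 and 11.98 in the control) and most blue and green points below it (DCN, 6.36 with IWP2 and 10.40 in the control).

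The labels call the cells embryonic stem cells, and the arrays read their differentiated progeny. POU5F1 and NANOG, the defining transcription factors of pluripotency, were detected on neither array. The other pluripotency markers read, LIN28A, SALL4 and DPPA4, were detected on both arrays, LIN28A at 9.04 with IWP2 and 9.88 in the control. Genes of cardiomyocytes, of liver and yolk sac endoderm, and of fibroblasts were detected on both. The means of 5 cardiomyocyte markers (MYH6, MYH7, MYL7, ACTN2 and NKX2-5) were 10.8 with IWP2 and 8.26 in the control. For 5 liver and yolk sac markers (AFP, ALB, APOA1, TTR and FGB) they were 11.03 with IWP2 and 12.72 in the control, and for 5 fibroblast markers (COL1A1, COL3A1, DCN, PDGFRA and THY1) 8.49 with IWP2 and 10.6 in the control. In RNA from a whole culture, more cells of a type and more RNA in each such cell cannot be told apart.

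Most heart muscle genes were higher with IWP2 or detected there only. The lists of sarcomere filaments, Z-disc and costamere, calcium handling and muscle energy metabolism together hold 99 genes detected on either array. Of the 71 detected on both, 41 were higher and 2 lower, another 26 were detected with IWP2 only and 2 in the control only, and the median difference was 1.38.

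The sarcomere is the contractile unit of the muscle cell, in which thick filaments of myosin pull on thin filaments of actin. Among 15 thick and thin filament genes detected on both arrays, 10 were higher and 0 lower, with a median of 1.20 over the 19 detected on either. MYH6, the fast myosin heavy chain of atria and early heart, read 14.34 with IWP2 and 11.98 in the control, a difference of 2.36. MYH7, the slow myosin heavy chain, read 7.97 with IWP2 and 5.50 in the control, a difference of 2.47. MYL3, a light chain of ventricle and slow muscle, read 12.01 with IWP2 and 8.97 in the control, a difference of 3.04. MYH6, MYH7 and MYL3 were thus on the same side, but not all atrial genes were. The atrial SLN, KCNA5 and HEY1, of other lists, differed by -2.62, -1.12 and -1.39. NPPA, the atrial natriuretic peptide, differed by 0.67, under 2-fold. MYL7, an atrial light chain, read 13.67 with IWP2 and 11.84 in the control, a difference of 1.83. MYL2, the ventricular regulatory light chain, was detected on neither array. The other atrial light chain, MYL4, read 13.85 with IWP2 and 12.14 in the control, but a second detected probe of MYL4 differed by -0.10, so its difference of 1.71 rests on 1 of 2 probes. The structural proteins MYOM1, which crosslinks myosin at the M-band, and NEBL, a thin filament protein, differed by 2.56 and 2.53. TNNC1, the calcium sensor of the thin filament, read 12.27 with IWP2 and 10.33 in the control. Cardiac actin, ACTC1, read 13.15 with IWP2 and 11.95 in the control.

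Z-discs anchor the thin filaments, costameres tie them to the membrane, and intercalated discs join cell to cell. Of 22 such genes detected on both arrays 12 were higher and 1 lower, and 11 were detected with IWP2 only against 1 in the control only. The median over 34 genes was 1.65. FHOD3, a formin that helps to assemble sarcomeric actin, read 9.23 with IWP2 and 5.85 in the control, a difference of 3.38. ACTN2, the crosslinker of the Z-disc, read 8.21 with IWP2 and 5.61 in the control, a difference of 2.60. KLHL41, a kelch protein of the muscle fibre, differed by 2.90 and SYNPO2L by 2.87. The small heat shock proteins of muscle stood with them: HSPB7 differed by 2.88, HSPB3 by 2.62, HSPB8 by 1.30 and CRYAB by 1.19. XIRP1, an actin-binding protein of the intercalated disc, was at least 4.76-fold higher, and CSRP3 and TCAP, which belong to the Z-disc, at least 3.36-fold and 3.07-fold higher. CDH2, the N-cadherin that joins cardiomyocytes, read 12.42 with IWP2 and 10.57 in the control. The 1 lower gene was PDLIM1, a PDZ and LIM domain protein, at 7.45 with IWP2 and 9.09 in the control.

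Each beat is driven by calcium that enters through membrane channels, releases more from the sarcoplasmic reticulum and is pumped back. Among 12 calcium handling genes detected on both arrays, 5 were higher and 1 lower, and 8 more were detected with IWP2 only (median 1.23 over 20). Of the entry and release steps, CACNB2, a subunit of the L-type calcium channel, was at least 4.02-fold higher, and RYR2, the release channel, at least 3.62-fold higher. SLC8A1, which exchanges sodium for calcium at the membrane, was at least 2.55-fold higher. Of the storage and pumping steps, HRC, which binds calcium in the reticulum, read 10.39 with IWP2 and 8.28 in the control, and the pump ATP2A2 read 11.20 with IWP2 and 10.13 in the control. The 2 small inhibitors of that pump lay on opposite sides. PLN (phospholamban) read 8.66 with IWP2 and 6.93 in the control, a difference of 1.73, whereas SLN (sarcolipin), the atrial one, read 9.29 with IWP2 and 11.90 in the control, a difference of -2.62. Among channels and connexins, where 3 of 6 were higher and 1 lower, GJA3, a connexin, read 8.72 with IWP2 and 5.85 in the control, and the potassium channel KCNA5, known from atrial cells, read 5.71 with IWP2 and 6.83 in the control.

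Promoters were read to show what sequence these genes carry at their start. Of the 41 higher genes of the filament, Z-disc, calcium and muscle energy lists, 33 had a promoter of 250 bases before to 50 after the gene start in RefSeq (GRCh38.p14). A CArG box, the site of serum response factor, was found on either strand in 4 of them (12.1%): ACTC1, FHL2, MYL7 and MYOM1. The same box was in 1.29% of all 27305 promoters. A MEF2 site was in 7 (21.2%; 1.91% of all promoters): ATP2A2, FHL2, HSPB3, HSPB7, KLHL41, SMPX and SYNPO2L. In FHL2 and HSPB3 that match overlaps a TATAAA. The letters TATAAA were in 8 of 33 (3264 of all 27305), CAGCTG, an E-box, in 36.4% (17.7% of all), and CTTTGA, the core bound by TCF and LEF factors, in 15.2% (13.1% of all). A match is a description of letters and not a site shown to be bound. The promoters of cardiac actin and of KLHL41 are shown with the CArG box and the MEF2 site in capitals, each 5′ to 3′ on the strand of its gene. ACTC1 lies at chr15:34795500-34795799 on the minus strand and KLHL41 at chr2:169509452-169509751 on the plus strand.
ACTC1: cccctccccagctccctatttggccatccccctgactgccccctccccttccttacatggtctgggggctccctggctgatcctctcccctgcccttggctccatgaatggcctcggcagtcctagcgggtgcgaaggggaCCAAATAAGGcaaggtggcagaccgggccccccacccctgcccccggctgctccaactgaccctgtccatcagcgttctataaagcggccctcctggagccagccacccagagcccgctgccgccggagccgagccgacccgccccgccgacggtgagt
KLHL41: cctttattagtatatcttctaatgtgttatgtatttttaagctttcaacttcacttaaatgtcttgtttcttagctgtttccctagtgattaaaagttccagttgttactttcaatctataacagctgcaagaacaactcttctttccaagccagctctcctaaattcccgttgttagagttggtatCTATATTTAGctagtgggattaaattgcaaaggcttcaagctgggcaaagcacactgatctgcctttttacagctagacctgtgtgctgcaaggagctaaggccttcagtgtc

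Regulators of the heart lineage were mixed. Of 24 detected on both arrays 8 were higher and 2 lower, 5 were detected with IWP2 only and 4 in the control only, and the median over 33 was 0.46. The higher ones hold factors of working myocardium. NKX2-5, the homeodomain factor of heart progenitors and cardiomyocytes, read 9.87 with IWP2 and 6.37 in the control, a difference of 3.50. IRX4, a ventricular Iroquois factor, read 10.04 with IWP2 and 6.74 in the control. SMYD1, a methyltransferase of heart and skeletal muscle, read 9.21 with IWP2 and 5.95 in the control, and RBM24, an RNA-binding protein that directs muscle splicing, 9.42 with IWP2 and 6.07 in the control. MEF2C, a transcription factor of many muscle genes, was at least 6.36-fold higher. ISL1, a marker of the second heart field, read 10.73 with IWP2 and 9.57 in the control, and TBX2, which keeps the atrioventricular canal from chamber fate, 10.25 with IWP2 and 8.35 in the control. The NOTCH-linked repressors parted: HEY2, the ventricular one, read 8.28 with IWP2 and 7.07 in the control, and HEY1, the atrial one, 7.17 with IWP2 and 8.56 in the control. TBX18, a factor of epicardium and sinus horn, read 5.28 with IWP2 and 6.96 in the control. Of hormones and secreted factors 4 of 7 were higher, and 1 lower. NPPB, the natriuretic peptide BNP, read 8.66 with IWP2 and 7.66 in the control, at the threshold, and APLNR, the apelin receptor of early mesoderm and vessels, 6.68 with IWP2 and 8.53 in the control.

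Muscle isoforms of energy metabolism, the last of the 4 heart muscle lists, were mostly higher, and respiratory chain genes had smaller differences. The cardiomyocyte markers were higher with them, and their part in the metabolic lists was not tested. Of 22 muscle isoforms of energy metabolism detected on both arrays 14 were higher and 0 lower (median 1.22 over 26). ENO3, the muscle enolase of glycolysis, read 12.25 with IWP2 and 8.77 in the control, a difference of 3.48. CKM, the muscle creatine kinase, read 10.99 with IWP2 and 7.63 in the control, and its mitochondrial partner CKMT2 8.73 with IWP2 and 5.67 in the control. Creatine kinase of brain and embryo, CKB, stood on the other side, at 10.94 with IWP2 and 11.76 in the control, under 2-fold. MB, the oxygen carrier myoglobin, read 9.38 with IWP2 and 6.24 in the control. The muscle ubiquitin ligases TRIM55 and TRIM63 each differed by 2.37, and PRKAG2, a subunit of the energy sensor AMPK, by 2.18. MDH1 and GOT1, cytosolic enzymes of the malate-aspartate shuttle, read 13.31 and 11.23 with IWP2, against 11.51 and 10.23 in the control, and the mitochondrial GOT2 differed by 1.14.

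The respiratory chain moves electrons through complexes I to IV in the inner mitochondrial membrane, and ATP synthase uses the gradient they build. Its subunits had smaller differences, nearly all on 1 side. Over 69 subunit genes detected on either array the difference was positive in 66 and negative in 3, with a median of 0.88. Over all 10267 genes detected on either array it was positive in 5176 and negative in 5083. Of the 66 subunit genes detected on both, 21 were at least 2-fold higher and 0 lower. Complex I had 8 of 32 higher (median 0.60), complex II 1 of 3 (0.43), complex III 1 of 7 (0.81), complex IV 4 of 9 (0.96) and ATP synthase 7 of 15 (0.93). ATP5MC3, a gene for the membrane ring of ATP synthase, read 8.61 with IWP2 and 5.64 in the control, a difference of 2.97. NDUFA6 of complex I read 10.28 with IWP2 and 8.42 in the control, and COX7B of complex IV 11.98 with IWP2 and 10.46 in the control. Fatty acid oxidation and mitochondrial regulators, at a median of 0.59, had 4 of 24 genes higher and 0 lower. PPARGC1A, the coactivator that drives mitochondrial biogenesis, read 8.81 with IWP2 and 5.85 in the control. ESRRG, the nuclear receptor it acts with, read 8.39 with IWP2 and 6.22 in the control, and SLC25A4, the muscle exchanger of ADP and ATP, 12.11 with IWP2 and 9.96 in the control. Muscle CPT1B, which carries fatty acids into mitochondria, was detected with IWP2 only, at least 1.38-fold higher, and the liver form CPT1A differed by -0.99.

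**Figure D2:**
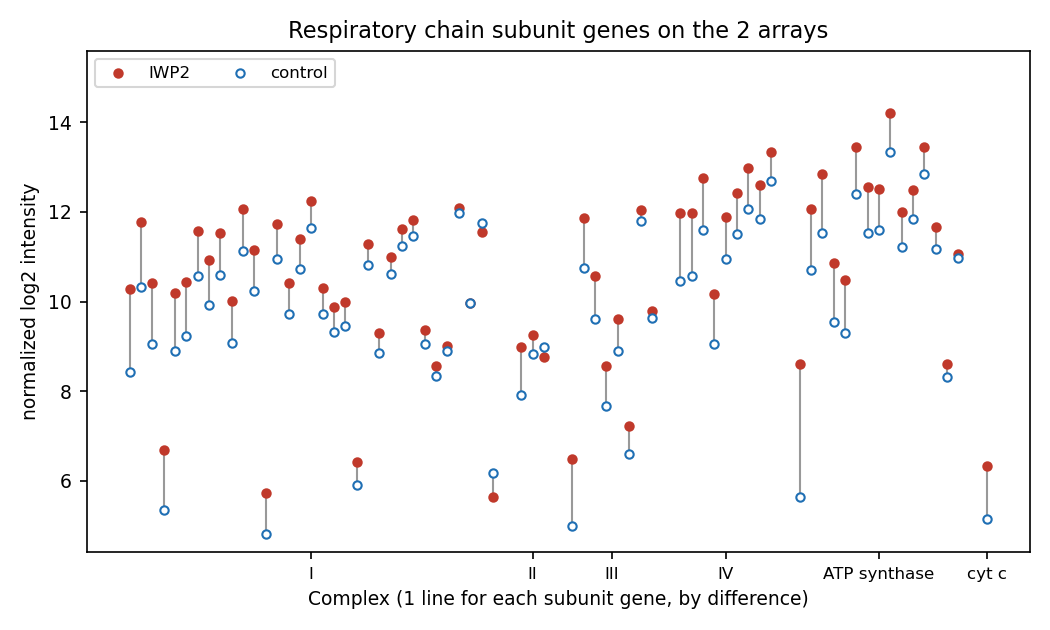
Each vertical line is 1 of 69 respiratory chain subunit genes, grouped by complex on the horizontal axis and ordered by difference within it. The vertical axis is normalized log2 intensity, with filled red circles for the IWP2 array and open blue circles for the control. The red circle is the upper one in 66 genes, and ATP5MC3 (8.61 with IWP2 and 5.64 in the control) has the longest line.

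The WNT pathway itself was read several days after the block. Porcupine, the target of IWP2, was not analysed here. WLS, which escorts lipid-bearing WNTs to the surface, read 10.59 with IWP2 and 10.37 in the control. Among WNT ligands 3 of 4 detected on both arrays were higher, with members known for non-canonical signaling among them. WNT11, which promotes heart formation in frog and chick embryos, read 7.89 with IWP2 and 5.61 in the control, a difference of 2.28. WNT2, made in the early heart tube of the mouse, read 7.70 with IWP2 and 5.77 in the control, a difference of 1.93. WNT5B differed by 1.16 and WNT5A by 0.94, while WNT3, a canonical ligand of the primitive streak, was detected in the control only. The median of these 5 was 1.16, but over all 19 ligand genes on the array, detected or not, it was -0.05.

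Secreted WNT antagonists had 4 of 7 genes lower and 0 higher. By sign the list was split, with 4 positive and 5 negative differences over 9 genes, and its median of -0.37 was -0.017 over all its genes on the array, detected or not. NOTUM, which removes the lipid from WNTs, and APCDD1, a membrane-bound antagonist, were detected with IWP2 only, at least 1.18-fold and 1.22-fold higher, and no member in the control only. SFRP1, a frizzled-related protein, differed by 0.22. FRZB, which binds WNTs through a frizzled domain, read 8.02 with IWP2 and 10.82 in the control, a difference of -2.79. SFRP5, of the same family, read 5.56 with IWP2 and 7.72 in the control. SOST, which blocks LRP receptors, read 6.13 with IWP2 and 7.50 in the control, and IGFBP4, which also blocks them beside its role in IGF binding, 7.14 with IWP2 and 9.06 in the control. Receptors and intracellular transducers had 2 of 43 higher and 4 lower (median -0.04), shares near or under the background. RSPO3, which raises receptor number, read 11.66 with IWP2 and 10.02 in the control. GPC3, a heparan sulfate proteoglycan that binds WNTs, read 10.00 with IWP2 and 12.12 in the control, and TLE1, a corepressor, 5.45 with IWP2 and 7.53 in the control. PTK7, a co-receptor of planar polarity, differed by -1.03, but its second probe differed by 0.63. Canonical target genes had 3 of 13 higher and 1 lower, with 3 detected with IWP2 only and 6 in the control only (median -0.29). AXIN2, the feedback inhibitor most used as a readout, read 7.33 with IWP2 and 8.08 in the control, under 2-fold. NKD2, another feedback inhibitor, was at least 2.37-fold lower, and MSX1 read 9.30 with IWP2 and 11.57 in the control. TNFRSF19 read 9.90 with IWP2 and 7.58 in the control, and EPHB3, a guidance receptor, 7.22 with IWP2 and 5.37 in the control. The targets therefore had members on both sides on day 10.

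Among BMP and ID genes, which act in heart and mesoderm specification, 6 of 16 were higher and 0 lower (median 0.79 over 17). BMP2, a ligand of the atrioventricular canal, read 9.71 with IWP2 and 8.31 in the control. BMP7 read 7.42 with IWP2 and 5.61 in the control, and BMP5 10.55 with IWP2 and 9.41 in the control. BMPER, a secreted modulator of these ligands, differed by 1.97, SMAD9, an intracellular transducer, by 1.51, and ID4, a target, by 1.48. In the TGF-beta group TGFB2, a ligand of cushion formation, read 7.35 with IWP2 and 5.87 in the control, and the co-receptor TGFBR3 6.58 with IWP2 and 9.72 in the control. FGF, PDGF, ERBB, EPH and NOTCH genes had 7 of 27 higher and 4 lower (median -0.03 over 35). DLL3, a NOTCH ligand of somites, read 7.66 with IWP2 and 5.65 in the control, and the receptor NOTCH1 6.16 with IWP2 and 7.53 in the control. PDGFRB, a receptor of pericytes and fibroblasts, read 6.93 with IWP2 and 9.02 in the control. The FGF-responsive phosphatase DUSP6 differed by 1.16. Among IGF ligands, receptors and binding proteins 0 of 12 were higher and 3 lower (median -0.21 over 16). IGFBP3, a carrier of IGFs, read 8.59 with IWP2 and 10.84 in the control. IGF2, the fetal growth factor, was at least 3.08-fold lower, and IGF1 and IGF1R were detected on neither array. Imprinted fetal growth genes had 1 of 17 higher and 3 lower (median -0.32 over 19). H19, CDKN1C and DLK1 differed by -2.66, -2.21 and -1.25, against 1.22 for NNAT, neuronatin.

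Most liver and yolk sac genes were lower with IWP2 or detected in the control only. The 4 lists of apolipoproteins, coagulation, serum proteins and hepatocyte metabolism hold 98 detected genes. Of the 68 detected on both arrays 2 were higher and 46 lower, 5 were detected with IWP2 only and 25 in the control only, and the median was -1.34. All 5 liver and yolk sac markers were still detected with IWP2, at a mean of 11.03 against 12.72 in the control.

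Apolipoproteins carry lipid in the blood. Of 13 detected on both arrays 12 were lower, and 3 were detected in the control only, so that the median over 16 was -2.02. APOC3, which slows the clearance of triglyceride, read 8.68 with IWP2 and 12.24 in the control, a difference of -3.56. APOA1, the core of high-density lipoprotein, read 12.17 with IWP2 and 13.72 in the control, and APOB, the core of low-density lipoprotein, 8.99 with IWP2 and 10.88 in the control. MTTP, which loads lipid onto APOB, read 7.80 with IWP2 and 10.83 in the control. TTR and RBP4, the carriers of thyroid hormone and retinol, differed by -1.22 and -2.69. Even so, TTR read 12.71 with IWP2, against 13.93 in the control.

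Of 19 coagulation genes and protease inhibitors 11 were lower and 2 higher (median -1.25 over 29). The 3 fibrinogen chains read 10.07 (FGA), 10.31 (FGB) and 9.59 (FGG) with IWP2, against 12.80 (FGA), 12.37 (FGB) and 11.68 (FGG) in the control. SERPINC1, the thrombin inhibitor antithrombin, was at least 10.1-fold lower and PLG, plasminogen, at least 7.10-fold lower. The 2 higher genes, A2M, a broad protease inhibitor, and PROS1, protein S, are also made outside the liver and differed by 1.33 and 1.32. Of 14 serum and acute phase genes 9 were lower and 0 higher (median -1.40 over 22). AFP, the fetal serum protein, read 12.71 with IWP2 and 14.18 in the control. ALB, albumin, read 7.23 with IWP2 and 9.41 in the control, and a second probe of ALB differed by -1.52. TF, transferrin, was at least 5.94-fold lower. HPX, which binds heme, read 6.46 with IWP2 and 9.24 in the control.

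Hepatocyte metabolism had 15 of 23 genes lower and 0 higher (median -1.17 over 32). The urea cycle enzymes CPS1 and OTC differed by -1.22 and -1.69, and ARG1 was at least 2.25-fold lower. ASGR1, the receptor for desialylated proteins, read 9.24 with IWP2 and 11.26 in the control. The glutathione transferase GSTA2 read 8.62 with IWP2 and 11.14 in the control, and its second probe differed by -3.37. Among endoderm and hepatic regulators 4 of 10 were lower and 0 higher (median -0.92 over 15). FOXA2, the pioneer factor of endoderm, read 8.75 with IWP2 and 10.08 in the control, and CEBPA, a factor of hepatocytes, 7.82 with IWP2 and 9.08 in the control. CREB3L3, a liver factor that acts on apolipoprotein genes, was at least 11.5-fold lower. PROX1, needed in liver, lymphatic vessels and heart muscle, was at least 2.29-fold higher. Metallothioneins and zinc transport genes had 2 of 5 lower and 0 higher (median -1.04 over 12), and MT1F read 6.46 with IWP2 and 9.50 in the control, while MT1G was at least 11.3-fold lower.

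Of the 46 lower liver genes 40 had a promoter in RefSeq. The letters GTTAAT, the core of the site of the liver factor HNF1, were on either strand in 8 of the 40 (6.89% of all promoters): AFP, ALB, FGA, FGB, FTCD, GSTA1, GSTA2 and LEAP2. In the higher heart muscle genes they were in 6.06%. CTTTGA was in 10 of the 40 (13.1% of all promoters), TATAAA in 11 (3264 of all 27305) and CAGCTG in 6 (17.7% of all). The CArG box was in 2 of the 40 (5.0%, against 1.29% of all) and the MEF2 site in 1 (2.5%, against 1.91% of all). Counts this small cannot show whether either site is scarcer there than over all promoters. The promoters of FGB at chr4:154562730-154563029 and of ALB at chr4:73404037-73404336, both on the plus strand, are shown with that core in capitals, which in FGB is on the minus strand.
FGB: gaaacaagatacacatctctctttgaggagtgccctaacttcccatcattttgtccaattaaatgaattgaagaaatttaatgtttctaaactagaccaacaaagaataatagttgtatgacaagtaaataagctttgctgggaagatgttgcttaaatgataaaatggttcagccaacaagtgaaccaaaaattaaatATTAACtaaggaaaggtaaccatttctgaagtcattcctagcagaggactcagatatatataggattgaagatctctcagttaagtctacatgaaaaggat
ALB: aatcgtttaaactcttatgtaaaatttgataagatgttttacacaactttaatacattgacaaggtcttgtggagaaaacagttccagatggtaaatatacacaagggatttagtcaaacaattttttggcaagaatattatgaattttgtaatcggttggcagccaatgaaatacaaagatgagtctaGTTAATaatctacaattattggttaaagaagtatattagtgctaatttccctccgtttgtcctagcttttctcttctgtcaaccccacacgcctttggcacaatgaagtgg

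Connective tissue genes were lower more often than higher: 19 of the 54 collagen and matrix genes with signal on each array were lower and 5 higher, with a median of -0.67 over 69. The mean of the 5 fibroblast markers differed the same way, but the markers COL1A1, COL3A1, DCN and THY1 are themselves members of these lists. That mean is therefore not a separate reading, and its part in these counts was not tested. Collagens had 7 of 22 lower and 3 higher (median -0.64 over 28). COL1A1, COL1A2 and COL3A1, the fibrillar collagens of fibroblasts, read 9.97, 10.76 and 11.30 with IWP2, against 11.51, 12.68 and 13.27 in the control. COL6A3, of the beaded filaments around cells, read 7.54 with IWP2 and 10.63 in the control, and its second probe differed by -3.38. The 3 higher ones were COL13A1, COL7A1 and COL2A1, the cartilage collagen, which read 7.71, 7.37 and 10.17 with IWP2, against 6.21, 5.88 and 8.77 in the control. Of 32 fibroblast and interstitial matrix genes 12 were lower and 2 higher (median -0.67 over 41). DCN, decorin, read 6.36 with IWP2 and 10.40 in the control, a difference of -4.04. The proteoglycans of the same family, LUM, BGN and FMOD, differed by -1.90, -2.26 and -2.27. LOX, which crosslinks collagen, read 6.23 with IWP2 and 7.96 in the control, and POSTN, periostin, was at least 4.32-fold lower. The exceptions were FBN2, the fetal fibrillin, at 11.77 with IWP2 and 9.37 in the control, and THBS1, thrombospondin, at 7.56 with IWP2 and 5.96 in the control. In basement membranes, with 0 of 16 higher and 5 lower, LAMA4, the laminin chain of vessels and muscle, was at least 8.80-fold higher and ITGA8, an integrin chain of mesenchyme, at least 4.42-fold lower.

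The secretory machinery that folds such proteins had 2 of 44 higher and 7 lower (median -0.26 over 47). FKBP11, a folding enzyme of secretory cells, read 7.30 with IWP2 and 10.65 in the control. Channel subunit SEC61A1 and the disulfide isomerase P4HB differed by -1.46 and -1.19. Genes that modify collagen lay on both sides. The prolyl hydroxylase genes P3H1 and P3H3 differed by -1.07 and -1.75, against 1.04 for P3H2 of the same family and 1.17 for CRTAP, the partner of P3H1. PLOD2, a lysyl hydroxylase of collagen, differed by 0.78 and its second probe by 1.10.

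Epicardium and mesothelium cover the heart and body cavities. Of 16 such genes 8 were lower and 2 higher, and 4 were detected in the control only (median -1.02 over 20). WT1 and BNC1, their transcription factors, read 5.34 and 5.72 with IWP2, against 6.80 and 7.30 in the control. TCF21, of epicardial fibroblast precursors, was at least 2.52-fold lower, while UPK3B, a mesothelial marker, was detected on neither array. TGFB2 and HAS2, which makes hyaluronan, were the 2 higher genes, at 1.48 and 1.40, but a second probe of HAS2 differed by 0.19. Epithelial genes had 8 of 19 lower and 1 higher (median -0.50 over 24). CDH1, E-cadherin, read 8.18 with IWP2 and 9.33 in the control, and the tight junction gene CLDN3 5.40 with IWP2 and 7.21 in the control. CLDN6, the embryonic claudin, read 6.59 with IWP2 and 5.54 in the control. Of the other epithelial markers read, EPCAM and KRT8 differed by -0.57 and -0.40, under 2-fold, and KRT18 was detected on neither array. A second probe of EPCAM differed by -1.13. Endothelial genes had 6 of 12 lower and 1 higher (median -0.59 over 21). The receptor TEK read 6.65 with IWP2 and 8.49 in the control, while KDR, which also marks heart progenitors, read 7.63 with IWP2 and 6.45 in the control. Of their defining markers CDH5 and PECAM1 were detected in the control only and TIE1 on neither array. Smooth muscle genes lay on both sides, with 2 higher and 2 lower of 15 (median -0.04). Of 5 smooth muscle markers 3 were detected on both arrays. ACTA2 read 13.33 with IWP2 and 12.86 in the control, TAGLN 11.64 with IWP2 and 11.37 in the control. CNN1 read 6.92 with IWP2 and 5.72 in the control. MYH11, their defining myosin, and SMTN were detected on neither array. Neural genes were divided, with 2 of 10 higher and 3 lower, and GAP43, a growth cone protein, read 5.67 with IWP2 and 9.07 in the control. The neural factors PAX6 and SOX1 and the leukocyte gene PTPRC were also detected on neither.

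Positional genes differed as well. Among HOX cluster genes and their cofactors 3 of 10 were lower and 0 higher (median -0.75 over 14), and HOXB5 read 7.34 with IWP2 and 10.12 in the control, HOXB4 5.53 with IWP2 and 7.43 in the control. Limb and lateral plate factors had 3 of 12 lower and 1 higher (median -0.38 over 17). PITX1, the hindlimb factor, read 6.44 with IWP2 and 10.35 in the control, and LHX2, a LIM factor of limb bud, forebrain and liver stellate cells, 5.58 with IWP2 and 9.47 in the control. PRRX1 and PRRX2, of limb and craniofacial mesenchyme, were at least 2.72-fold and 3.66-fold lower. In the retinoic acid group, which patterns heart and trunk, 2 of 11 were higher and 5 lower (median -0.61 over 15). RDH10, an enzyme of retinoic acid synthesis, differed by -1.39 and the receptor RXRA by -1.71, against 1.30 for the carrier CRABP2 and 2.46 for TGM2, a transglutaminase that retinoic acid induces.

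**Figure D3:**
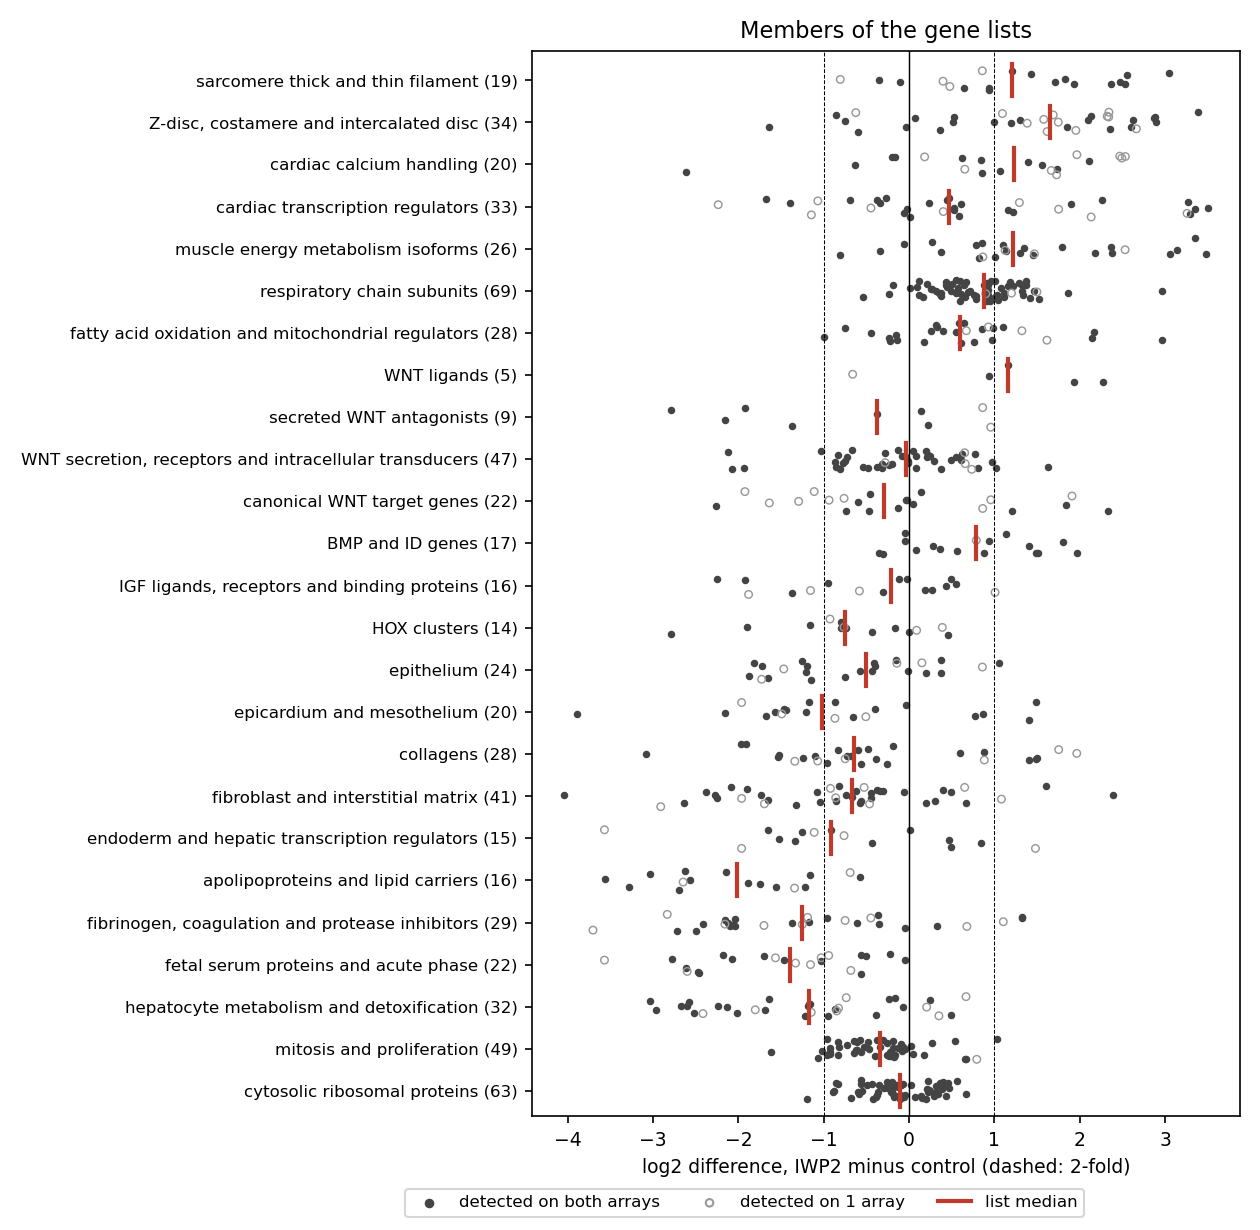
Each row is a gene list, with the number of members detected on either array in brackets, and each point is 1 member at its log2 difference, IWP2 minus control, on the horizontal axis. Filled points were detected on both arrays, open points on 1, the red bar is the list median and the dashed lines mark 2-fold. The medians of the muscle lists lie right of 0 (1.65 for the Z-disc list) and those of the liver lists left of it (-2.02 for the apolipoproteins).

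Most proliferation genes had a negative difference under 2-fold. Of 48 mitosis and replication genes detected on both arrays 1 was higher and 3 lower, but 40 of 49 had a negative difference (median -0.35). Over all 10267 genes detected on either array, 5083 differences were negative and 5176 positive. CCNE1, a cyclin of S-phase entry, read 5.69 with IWP2 and 7.31 in the control, and the mitotic kinase CDK1 7.90 with IWP2 and 8.83 in the control, under 2-fold. A second probe of CDK1 differed by 0.17, so that negative difference rests on 1 of 2 probes. Among the inhibitors of the cycle CDKN1B differed by 1.04 and CDKN1C by -2.21. All 10 detected pluripotency genes had a negative difference (median -0.58), with LIN28A at 9.04 with IWP2 and 9.88 in the control. Cytosolic ribosomal proteins lay close to 0 (median -0.11), with 0 of 63 higher and 1 lower, RPL13 at 8.52 with IWP2 and 9.71 in the control.

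Of further metabolic groups, glycolysis and hypoxia genes were divided, with 15 positive and 16 negative differences. Differences were more often negative in cholesterol and fatty acid synthesis (8 positive and 17 negative). The same held for serine synthesis and ATF4-responsive genes (4 positive and 18 negative). Cholesterol and fatty acid synthesis had 2 of 25 higher and 6 lower (median -0.32), with the sterol enzymes MVD and LSS at -2.05 and -1.77 and TM7SF2 at 1.42. Serine synthesis and ATF4-responsive genes had 1 of 20 higher and 6 lower (median -0.66). PSAT1, a serine enzyme, read 8.11 with IWP2 and 9.77 in the control, and ASNS, asparagine synthetase, 7.54 with IWP2 and 9.17 in the control. PYCR1, a proline enzyme, differed by -1.37, but its second probe differed by 0.53. Glycolysis and hypoxia genes had 4 of 29 higher and 5 lower (median -0.02). NDRG1, a hypoxia-responsive gene, differed by -2.68. PKM and GPI, glycolytic enzymes, differed by 1.05 and 1.06, against -1.41 for ALDOC, the brain aldolase. Splicing regulators, at 3 of 13 higher and 0 lower, held the neural PTBP2 at 9.86 with IWP2 and 7.71 in the control.

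Several of the largest differences belong to no list. XPO4, a nuclear export receptor, read 11.20 with IWP2 and 7.62 in the control, and its second probe differed by 3.21. DDIT4L, a stress-induced relative of DDIT4, read 9.59 with IWP2 and 6.18 in the control, while DDIT4 itself read 8.16 with IWP2 and 9.85 in the control. MAP3K20, a stress kinase, read 10.30 with IWP2 and 7.08 in the control. FASTKD1, a mitochondrial RNA-binding protein, differed by 3.17 and LMO3, a LIM-only protein, by 3.15. On the lower side TMEM200A read 5.28 with IWP2 and 8.93 in the control, and MS4A10 6.62 with IWP2 and 10.07 in the control. The transporters SLC22A7 of organic anions and SLC13A5 of citrate, both known from liver, differed by -3.14 and -3.07. ALPL, the tissue-nonspecific alkaline phosphatase, was at least 11.3-fold lower.

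A second probe of the same gene is a separate measurement on the same RNA. It was available, detected on both arrays, for 126 higher and 129 lower genes. Its difference had the same sign in 103 of the higher (81.7%) and 109 of the lower genes (84.5%), and was itself past 2-fold in 48 (38.1%) and 47 (36.4%). In neither group was a second probe past 2-fold the other way. For genes whose first probe differed by less than 2-fold, 65.0% of 1394 had the same sign and 7.82% were past 2-fold the same way. Among 38 genes whose first probe was past 4-fold, the second had the same sign in 37 and was past 2-fold in 34. The pairs were 3.48 and 2.89 for ENO3, 3.35 and 2.31 for RBM24, 3.14 and 1.99 for MB, 2.90 and 3.41 for KLHL41, and -2.72 and -2.30 for FGA. Probes of 1 gene may read different transcripts, and that was not tested.

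**Figure D4:**
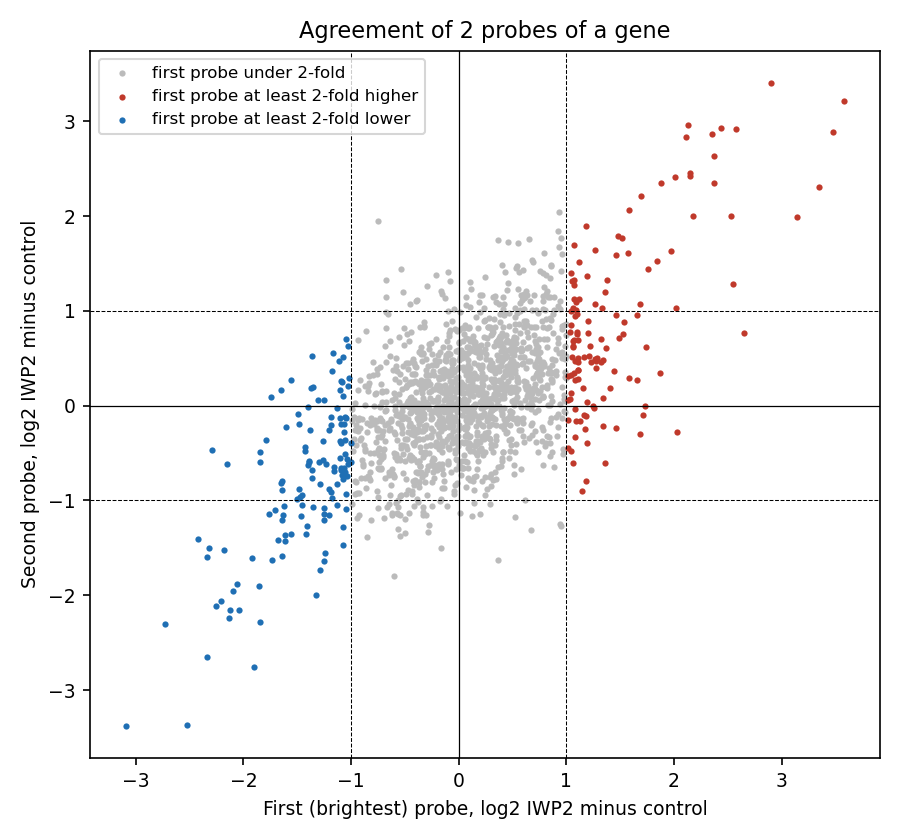
Each point is 1 gene with 2 detected probes, with the log2 difference, IWP2 minus control, of the brightest probe on the horizontal axis and of the second probe on the vertical axis. Dashed lines mark 2-fold, red points are genes higher and blue points genes lower by the first probe. Of the red genes 103 of 126 lie above 0 on the vertical axis and of the blue genes 109 of 129 lie below it.

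The same genes were read on the other arrays of the series. The 584 higher genes had a median level of 8.49 with IWP2, 8.42 with IWP2 and LY294002, 8.09 with LY294002, 7.06 with insulin and 6.96 in the control. The IWP2 array was the highest of the 5 in 216 of them. The control was the lowest in 277 and the insulin array in 265. For the 648 lower genes the medians were 6.89 with IWP2, 6.37 with both inhibitors, 7.02 with LY294002, 8.48 with insulin and 8.52 in the control. The IWP2 array was the lowest in 159 of them. The control was the highest in 301 and the insulin array in 322, more often than the control. The genes were chosen on the IWP2 and control arrays, so the places of those 2 arrays are set in part by the choice. NKX2-5 read 9.87 with IWP2, 9.18 with both inhibitors, 9.58 with LY294002, 5.27 with insulin and 6.37 in the control. SLN, on the other side of its list, read 9.29 with IWP2, 4.87 with both inhibitors, 9.56 with LY294002, 11.47 with insulin and 11.90 in the control. For ALB the levels were 7.23 with IWP2, 4.92 with both inhibitors, 4.97 with LY294002, 9.02 with insulin and 9.41 in the control.

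**Figure D5:**
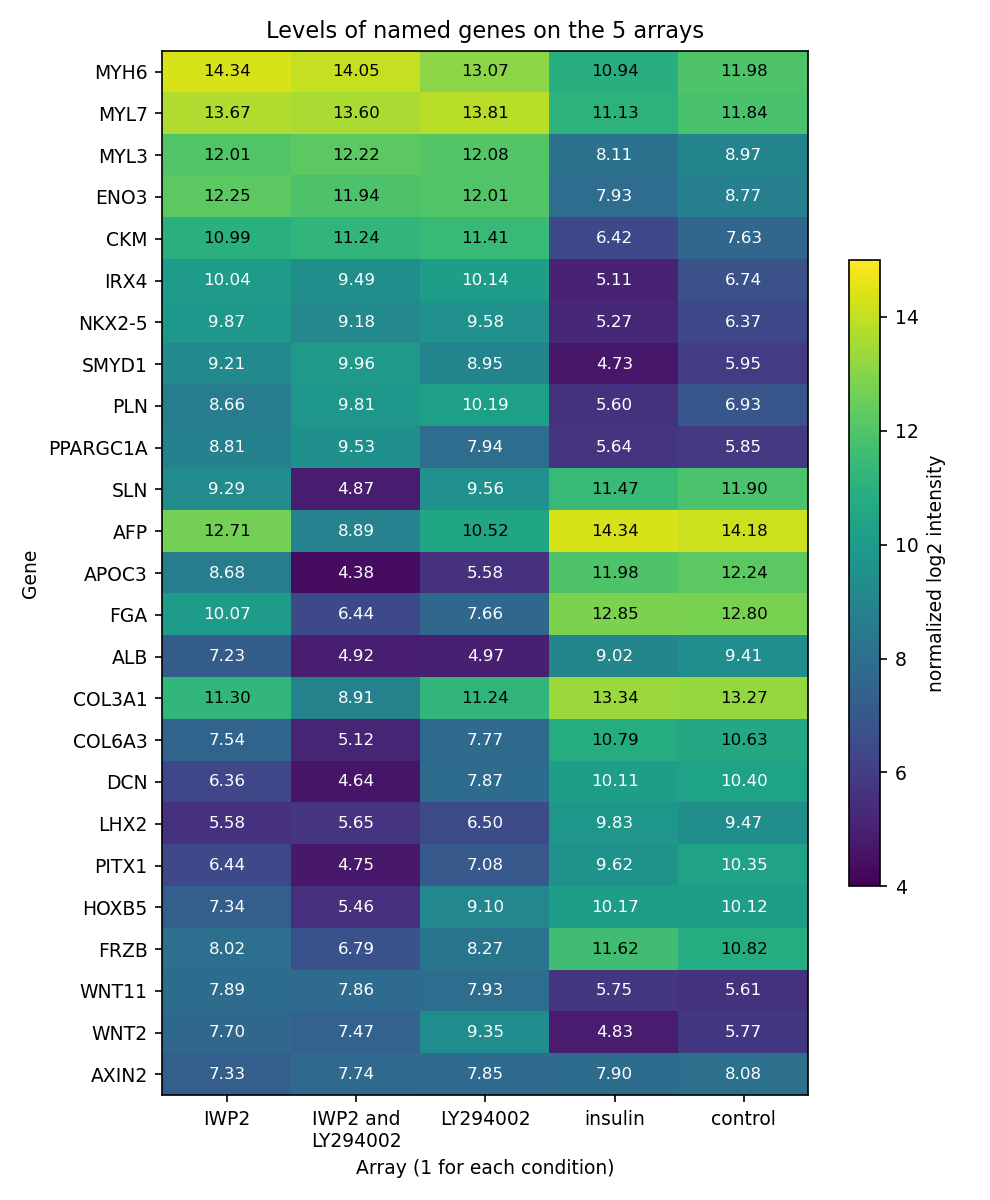
Each row is 1 gene and each column 1 array, and the number and colour give the normalized log2 intensity. In the 10 uppermost rows the levels are higher on the 3 inhibitor arrays than on the insulin and control arrays (MYL3, 12.01 with IWP2 and 8.97 in the control), and in the liver and matrix rows they are lower there (FGA, 10.07 with IWP2 and 12.80 in the control).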

How the data were processed

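Per the labels' protocols, cRNA made from each culture's total RNA was read on an Illumina BeadChip, and each condition has 1 array. The deposited scanner-level table holds an intensity for each of 47299 probes per array, not normalized and with background still in it (lowest values 81.3 for IWP2 and 81.6 for the control), and a detection p-value per probe in steps of 1 in 770, per the file headers and the values. A second deposited table holds log2 values of the authors (median 5.013 for IWP2). The steps behind it are not given in the sources used here. Its columns have nearly 1 distribution, and its background reduction is unknown.

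Here the intensities were background-corrected with normexp, with negative controls inferred from detection p-values, quantile-normalized over the 5 arrays and set to log2 with an offset of 16 (neqc, limma 3.58.1, R 4.3.3). Later steps used Python 3.11.15, numpy 2.4.6 and pandas 2.3.3, and the code was tested on simulated arrays. Probes were named from GEO's platform annotation, with symbols updated through RefSeq: 30106 had 1 symbol, 8 several and 17185 none. Where a gene had more than 1 probe (6690 genes), the brightest by mean log2 over the 5 arrays stood for it. Detected means a detection p-value under 0.01. For a bound, the bright array's value was divided by the dim array's own value or its lowest detected signal, whichever was higher. Promoters were matched by symbol. The number of arrays limits the precision, no batch is named in the labels or headers, and no test was possible.

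The comparison, the 49 gene lists and the rules were chosen with earlier results of these data known. Genes were named by rule: the 15 largest differences and 10 largest bounds each way, per list the 8 largest differences at most and 3 on the other side from its median, and a set of WNT, IGF and cardiac genes. A further 36 list members, such as ACTC1, ATP2A2, FGB and APOB, were named for their roles after their values were seen. Placeholder symbols were counted and not named, and TNNT2 was not analysed here. The alternatives were 75th percentile scaling, cyclic loess, the 2 arrays normalized alone, no background correction, an offset of 50, the deposited log2 table, a detection p-value under 0.05, no detection filter, and the mean of a gene's detected probes.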

Additional observations from a re-analysis of the deposited data

How the results depend on the processing

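No paired analysis was possible because each group has 1 array, and for the same reason no replicate could be left out. The main counts were 584 higher and 648 lower genes. Cyclic loess gave 529 and 675, 75th percentile scaling gave 608 and 622, and the counts were 575 and 641 with the 2 arrays normalized alone, 521 and 597 in the deposited table, 661 and 743 with a detection p-value under 0.05, 827 and 945 with no detection filter, and 528 and 582 with the mean of a gene's detected probes. Counts past 1.5-fold were 1483 higher and 1543 lower. Of the 23 list medians that answer a comparison, all 23 kept their sign and stayed within 0.25 or 1.5 times under 75th percentile scaling, cyclic loess, the 2 arrays alone, the deposited table and the mean of probes.

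Leaving the background in place shrank differences, as its construction gives: 242 genes were higher and 311 lower, and the medians were 0.77 for the Z-disc list, 0.62 for calcium handling, 0.21 for cardiac regulators, -0.62 for coagulation, -0.65 for serum proteins, -0.37 for hepatic regulators, -0.39 for collagens, -0.40 for fibroblast matrix, -0.57 for epicardium, -0.28 for HOX genes and 0.58 for WNT ligands. With an offset of 50, 384 genes were higher and 472 lower, and the medians were 1.05 for the Z-disc list, -0.92 for serum proteins, -0.59 for hepatic regulators and -0.47 for HOX genes. With a detection p-value under 0.05 the WNT ligand median was 0.53.

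Without a detection filter, which adds genes with no detected signal, medians were 0.56 for the filament list, 0.65 for calcium handling, 0.32 for fatty acid oxidation, -1.28 for apolipoproteins, -0.40 for coagulation, -0.62 for serum proteins, -0.16 for hepatic regulators, -0.26 for collagens, -0.36 for fibroblast matrix, -0.28 for epicardium, -0.090 for epithelium, -0.13 for HOX genes and -0.017 for WNT antagonists. There the sign turned for WNT ligands (-0.048), ion channels (-0.031), blood (-0.038) and cell cycle brakes (-0.028), and with the mean of probes for neural crest (-0.051). Of the named genes detected on both arrays and past 2-fold, none turned its sign under the alternatives run.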

Other observations

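Some neural and neural crest genes differed although the defining neural factors were not detected. LRRN3, a leucine-rich repeat membrane protein, read 9.60 with IWP2 and 7.17 in the control, and NES, the intermediate filament nestin that early muscle also makes, 9.41 with IWP2 and 7.85 in the control. LRRTM1, a synaptic adhesion protein, read 6.14 with IWP2 and 9.42 in the control, and the tubulin TUBB3 5.88 with IWP2 and 7.65 in the control. The neural list had 2 of 10 genes higher and 3 lower (median -0.06), and the neural crest list 1 of 6 higher and 2 lower (median 0.11, or -0.051 with the mean of a gene's probes). MITF, a factor of pigment cells also found in heart, read 7.24 with IWP2 and 5.58 in the control, and SNAI2, a repressor of epithelial genes, 6.06 with IWP2 and 7.99 in the control. The fetal globin HBG2 was detected with IWP2 only, at least 1.26-fold higher. The short lists of skeletal muscle (3 genes detected), presomitic and intermediate mesoderm (6), primitive streak (4) and blood (7) had medians of 1.64, -0.40, 0.62 and 0.28, and the sign of the blood median turned without a detection filter (-0.038). AVP, the vasopressin gene, read 5.30 with IWP2 and 8.37 in the control.

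Further genes were detected on 1 array only. MARCHF11, a ubiquitin ligase, was at least 7.32-fold higher, CLGN, a chaperone, at least 6.44-fold higher and the long noncoding RNA CRNDE at least 4.30-fold higher. PAMR1 was at least 10.4-fold lower and FMO1, a drug-metabolizing oxygenase, at least 9.88-fold lower. In all, 121 bounds with IWP2 only and 148 in the control only were past 2-fold.

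The shares of called genes were not even over chromosomes. On chromosome 22, 2.63% of 190 genes were higher and 13.2% lower, and on chromosome 13, 10.7% of 159 were higher and 3.14% lower. The median difference ran from -0.14 on chromosome 16 to 0.21 on chromosome 13. Whether the base composition of these chromosomes' genes moves with this was not tested. Below a mean level of 6 on the log2 scale 1.19% of genes were higher and 1.19% lower, against 6.32 to 8.54% higher and 4.60 to 9.90% lower in the bins above it. These genes were detected on both arrays, and the lowest detected values were 5.27 for IWP2 and 5.32 for the control. A mean below 6 thus left little room for a 2-fold difference, so the low share is set in part by the detection filter.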
